A study of Homo sapiens with 30 samples.

Results

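The genes described here are 10 regulators of the G1 phase of the cell cycle, taken as the rows of the listed symbols in each of 3 count tables of RNA-seq in 5637 cells, a human bladder carcinoma cell line. They are the D-type cyclins CCND1 and CCND3, the E-type cyclins CCNE1 and CCNE2, the kinases CDK4 and CDK6, and the inhibitors CDKN1A, CDKN1B, CDKN2A and CDKN2B. All 10 were found once in each table, among 60612 genes in the knockout table (by Ensembl identifier) and 56303 genes in each of the other tables, and all 10 passed the filter on low counts in every comparison. The knockout table holds 3 libraries each of 5637 cells with RBPMS knocked out (KO1 and KO2) and of wild type 5637 cells (WT1 and WT2), where KO1 was compared with WT1 and KO2 with WT2. The overexpression table holds 3 libraries each of 5637 cells with vector only (Vector) and with ANKRD10-1 or ANKRD10-2 overexpressed, which are the longer and the shorter splice variant of ANKRD10. The knockdown table holds 3 libraries each of 5637 cells given control siRNA (siNC), siANKRD10-1 or siANKRD10-2. The labels call the knockout controls wild type, whereas the study's text calls them sgCtrl. That text also says that the knockouts were made with different sgRNAs, and it names off-target effects as possible. It mentions that knockout cells went through expansion from single clones, so that a knockout group may represent 1 clone.

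Cells pass from G1 into S phase when cyclin-dependent kinases phosphorylate the retinoblastoma protein and release E2F transcription factors. D-type cyclins bind CDK4 and CDK6 and respond to growth signals, and E-type cyclins then bind CDK2. The INK4 inhibitors, p16INK4a from CDKN2A and p15INK4b from CDKN2B, block CDK4 and CDK6, while p21 from CDKN1A and p27 from CDKN1B bind cyclin-CDK complexes more broadly. Members of this pathway are frequently altered in bladder carcinoma, and MYC, the transcription factor this study was concerned with, is known to act on several of them.

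Total counts per library ranged from 44593108 to 69723937 in the knockout table, from 31736779 to 47493499 in the overexpression table and from 28511029 to 32784584 in the knockdown table. Levels are given as counts per 1000000 counts (CPM) after TMM normalization within a table, and the tables were not normalized to each other. All 8 epithelial and urothelial markers examined were above 1 CPM in every library, and the immune markers PTPRC and CD3E were at most 0.414 CPM. Of the other markers examined, COL1A1 of fibroblasts was at 26.6 to 52.2 CPM. CD68 of macrophages was at 0.0359 to 1.59 CPM in the knockout table, 16 to 23.7 in the overexpression table and 9.11 to 14.7 in the knockdown table. COL1A2 of fibroblasts was at 3.89 to 6.91 CPM in the overexpression table and at most 0.62 CPM elsewhere. The part of these markers in the results was not tested. RBPMS was lower in the knockouts, with 14.3 to 15.2 CPM in KO1 and 18.9 to 21.3 CPM in KO2 against 39.0 to 44.2 CPM in the WT libraries. RBPMS was at 3.57 to 6.28 CPM in every overexpression and knockdown library, their controls included. The study's text describes the cells of ANKRD10-2 knockdown and of ANKRD10-1 overexpression as RBPMS knockout cells, which the labels do not state. The treated groups of each of these tables share its control group. RBPMS genotype may therefore also differ between a treated group and its control, and its part in the results was not tested. ANKRD10, counted over all its transcripts, was lower in KO1 (log2 fold change −1.18) and in KO2 (−0.76). It was higher in the ANKRD10-1 (0.67) and ANKRD10-2 (0.41) cells and lower in siANKRD10-1 (−0.24) and siANKRD10-2 (−0.25). The siANKRD10-1 call was lost without siNC replicate 1 (adjusted p = 0.0607) or siANKRD10-1 replicate 3 (adjusted p = 0.0636). In bulk samples, a change in the share of cells in a cell cycle phase and a change in RNA per cell cannot be told apart.

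In GRCh38 coordinates, CCND1 spans 69641087 to 69654474 of chromosome 11 (plus strand). CDK4 spans 57747727 to 57756013 of chromosome 12 (minus strand), and CDKN1B spans 12715058 to 12722371 of the same chromosome (plus strand). CDKN2A (21967753 to 21995301) and CDKN2B (22002903 to 22009363) are neighbours on the minus strand of chromosome 9. CDKN2A yields both p16INK4a and p14ARF, which the counts do not separate. The antisense gene CDKN2B-AS1 overlaps this locus, and whether reads were counted by strand is not given in the sources used here, so reads of the partners could be shared.

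RefSeq sequences upstream of the transcription start (GRCh38.p14) were taken for 8 of the 10 genes, with 12 start sites in all. CCND1 had no such sequence in the source used, and CCNE2 was left out of the search. The 12 sequences were searched over 250 bases, on both strands, for the E-box CACGTG, the sequence that MYC and MAX bind. They were also searched for the E2F sites TTTCGCGC and TTTGGCGC, the GC box GGGCGG and the TATA box TATAAA. An E-box was found upstream of 1 of these 8 genes, CDK4, with 3 copies starting 216, 196 and 101 bases before the start site. Of 35116 upstream sequences in the table, 6.34% held an E-box. No E2F site and no TATA box was found in the 12 sequences, against 0.968% and 10.7% of all sequences. A GC box was found in 9 of the 12, against 42.6% of all, and CCND3, CDK6 and CDKN2A each had 1 start site without it. The CDK4 sequence is shown because it alone of the 12 held E-boxes, which are in capitals. The CDKN2B sequence is shown because CDKN2B had the largest change of the 10 genes. These matches describe letters and not bound sites. Gene spans came from the annotation given with the counts and start sites from RefSeq, and the CDK4 sequence lies within the span given for CDK4.
CDK4 (chr12:57752311-57752560, minus strand): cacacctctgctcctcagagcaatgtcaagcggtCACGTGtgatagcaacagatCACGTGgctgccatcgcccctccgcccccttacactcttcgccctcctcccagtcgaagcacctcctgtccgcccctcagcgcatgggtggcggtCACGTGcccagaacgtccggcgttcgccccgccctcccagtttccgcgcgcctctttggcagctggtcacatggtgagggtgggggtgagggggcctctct
CDKN2B (chr9:22009306-22009555, minus strand): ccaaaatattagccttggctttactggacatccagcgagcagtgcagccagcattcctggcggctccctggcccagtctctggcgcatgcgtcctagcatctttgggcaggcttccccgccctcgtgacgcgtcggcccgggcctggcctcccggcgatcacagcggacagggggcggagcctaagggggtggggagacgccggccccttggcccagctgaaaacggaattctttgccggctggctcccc

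Levels of different genes were compared as CPM per kilobase of the gene length listed in the overexpression table. In WT1 the highest mean level was that of CDKN2A at 49.5 ± 1.29 CPM per kilobase (SD, n = 3), followed by CDK4 at 41.1 ± 1.23. CDKN1A (30.3 ± 0.609) and CCNE2 (29.1 ± 2.59) came next, and their ranges overlapped. CCND1 stood at 22.4 ± 0.984, and CDKN1B (15.1 ± 0.835) and CCNE1 (14.5 ± 0.205) overlapped. CDK6 (13 ± 0.201), CDKN2B (8.6 ± 0.257) and CCND3 (3.64 ± 0.27) were lowest, each below the range of the gene before it. In siNC the order differed, with CDK4 highest at 42.9 ± 0.935, CCND1 at 28 ± 1.13 and CDKN2A at 15.3 ± 0.58 CPM per kilobase. CCND3 was the lowest of the 10 genes in WT1, WT2, Vector and siNC, whereas in KO1 CDKN2B ranked last at 2.46 ± 0.339. In KO2 CDKN2B also ranked last, at 3.36 ± 0.126, and its range overlapped that of CCND3 (3.63 ± 0.291).

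**Figure D1:**
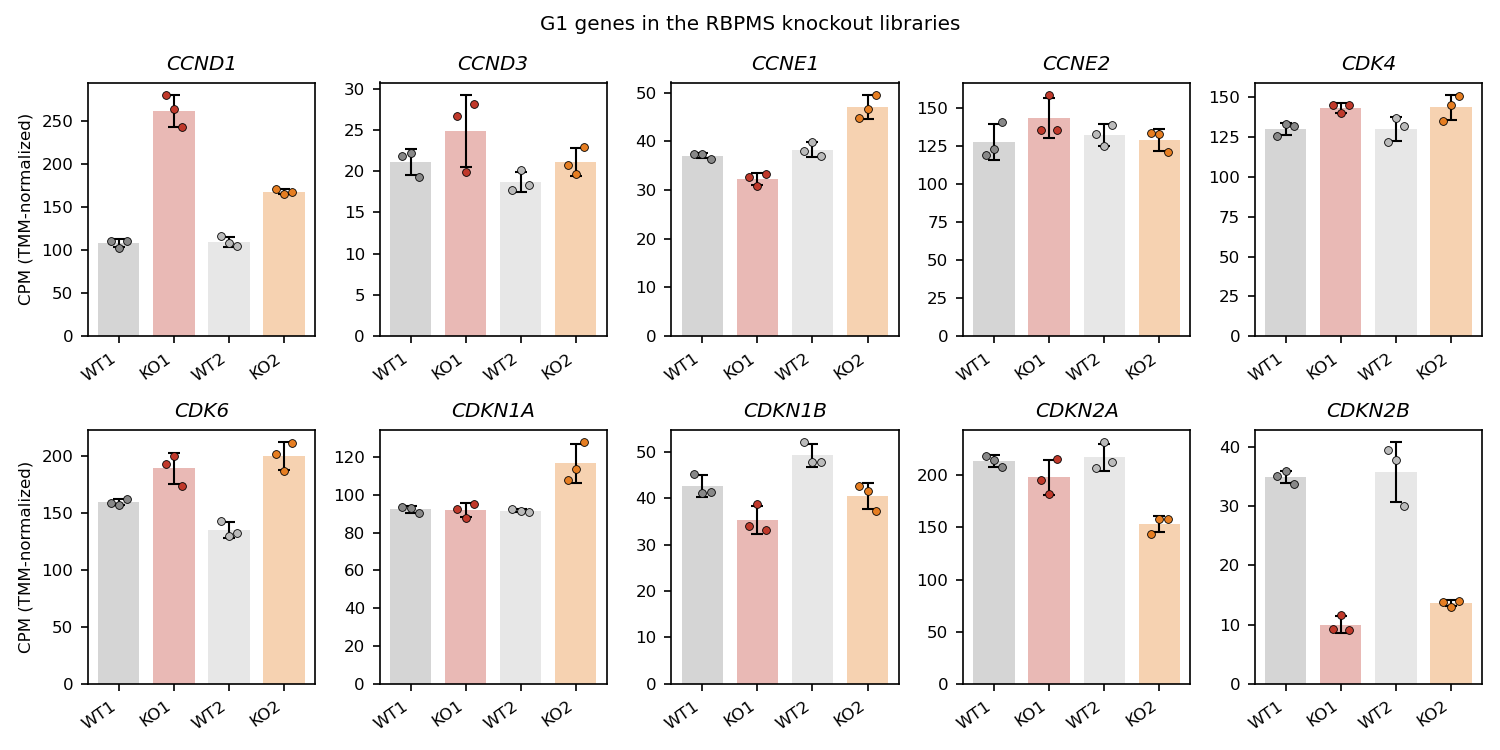
CPM after TMM normalization (vertical axes, from 0) of the 10 genes in the 12 knockout libraries; points are libraries, bars are means and error bars are SD (n = 3). CCND1 stood at 243 to 280 CPM in KO1 and 165 to 171 in KO2 against 103 to 116 in the WT libraries, and CDKN2B at 9.1 to 14 against 30 to 39.5.

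Knockout of RBPMS went with more CCND1 and CDK6 and less CDKN1B and CDKN2B mRNA in both KO1 and KO2. In KO1, 3 of the 10 genes were higher (CCND1, CDK4 and CDK6) and 3 were lower (CCNE1, CDKN1B and CDKN2B) at an adjusted p under 0.05 in edgeR's quasi-likelihood test, where 17.9% of all genes tested were higher and 18.2% lower. In KO2, 4 were higher (CCND1, CCNE1, CDK6 and CDKN1A) and 3 lower (CDKN1B, CDKN2A and CDKN2B), against 19.3% and 19.2% of all genes. The median log2 fold change of the 10 genes was 0.06 in KO1 and 0.16 in KO2, beside 0 and −0.02 for all genes tested. A change of at least 1 on the log2 scale was found for CCND1 and CDKN2B in KO1, where 6.43% of genes had one, and for CDKN2B in KO2, where 5.99% had one.

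CCND1, which encodes cyclin D1, was at 111, 103 and 111 CPM in WT1 and at 280, 264 and 243 CPM in KO1. Every KO1 library was above every WT1 library, and the change was 1.27 on the log2 scale (SE 0.06, 95% interval 1.14 to 1.41, adjusted p = 1.06e-07). In KO2 it was at 171, 165 and 168 CPM, against 116, 108 and 105 in WT2, a change of 0.61 on the log2 scale (SE 0.04, adjusted p = 5.68e-07). CCND3, which encodes cyclin D3, ranged from 19.9 to 28.1 CPM in KO1 and from 19.3 to 22.2 in WT1, and the groups overlapped. Its log2 fold changes were 0.24 in KO1 (interval −0.03 to 0.50) and 0.17 in KO2 (interval −0.01 to 0.34), and neither passed the test. The KO1 value passed without KO1 replicate 2 (0.38, adjusted p = 0.00573) and against all 6 WT libraries (0.33, adjusted p = 0.0205).

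CDK6 was at 193, 200 and 174 CPM in KO1 and 159, 157 and 162 in WT1, with a change of 0.25 on the log2 scale (SE 0.06, adjusted p = 0.00501). In KO2 it was at 202, 187 and 211 CPM, against 143, 130 and 132 in WT2, with a change of 0.56 on the log2 scale (SE 0.05, adjusted p = 2.88e-06). CDK6 and CDK4 are the catalytic partners of the D-type cyclins. CDK4 rose by a smaller amount, from 126 to 133 CPM in WT1 to 140 to 145 in KO1, a change of 0.14 on the log2 scale (SE 0.05, adjusted p = 0.0399). In KO2 its log2 fold change was also 0.14, the groups overlapped and the adjusted p was 0.0506. Both of these lie near the threshold, since the KO1 call was lost without any 1 of 5 of its 6 libraries (all but KO1 replicate 2), with adjusted p of up to 0.133, and the KO2 value passed in DESeq2 (adjusted p = 0.0297). With the replicate block the KO1 call was lost (adjusted p = 0.0612) and the KO2 value passed (adjusted p = 0.0145). With no filter on low counts the KO1 call was also lost (adjusted p = 0.0821).

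CCNE1, which encodes cyclin E1, fell in KO1 and rose in KO2. It was at 32.6, 30.8 and 33.2 CPM in KO1 against 37.3, 37.4 and 36.4 in WT1 (log2 fold change −0.20, SE 0.06, adjusted p = 0.0232). In KO2 it was at 44.8, 46.7 and 49.6 CPM against 38.0, 39.9 and 37.0 in WT2 (0.29, SE 0.05, adjusted p = 0.00119). The KO1 call was lost when any 1 of 5 of its 6 libraries was left out (all but KO1 replicate 3), with adjusted p of up to 0.0876, with log2 fold changes of −0.17 to −0.22 throughout. CCNE2 did not pass the test in either knockout, with log2 fold changes of 0.17 (interval 0.00 to 0.34) and −0.04 (interval −0.15 to 0.08), although without WT1 replicate 3 the KO1 value was 0.25 (adjusted p = 0.0359).

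CDKN2B had the largest fall of the 10 genes in both knockouts. It was at 35.1, 35.9 and 33.8 CPM in WT1 and at 9.31, 11.6 and 9.1 CPM in KO1, a change of −1.81 on the log2 scale (SE 0.10, adjusted p = 3.12e-07). In KO2 it was at 13.8, 13.0 and 14 CPM, against 39.5, 37.8 and 30.0 in WT2, a change of −1.40 on the log2 scale (SE 0.10, adjusted p = 3.43e-07). Its neighbour CDKN2A ranged from 182 to 216 CPM in KO1, overlapping the 208 to 219 of WT1 (log2 fold change −0.11, adjusted p = 0.179), although without KO1 replicate 3 it was −0.18 (adjusted p = 0.0336). In KO2 CDKN2A was at 144, 158 and 158 CPM, below the 207, 232 and 213 of WT2 (−0.51, SE 0.05, adjusted p = 9.08e-06). The overlapping antisense gene CDKN2B-AS1 had a log2 fold change of −0.17 in KO1 (adjusted p = 0.439) and −1.45 in KO2 (adjusted p = 7.43e-05). MTAP, the gene beyond CDKN2A, had values of 0.09 (adjusted p = 0.153) and −0.31 (adjusted p = 0.000159).

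CDKN1B was at 33.9, 38.7 and 33.2 CPM in KO1, below the 45.3, 41.1 and 41.3 of WT1 (log2 fold change −0.27, SE 0.08, adjusted p = 0.0147). In KO2 it was at 42.7, 41.5 and 37.2 CPM, below the 52.1, 47.8 and 47.9 of WT2 (−0.29, SE 0.06, adjusted p = 0.00297). The KO1 call was lost without WT1 replicate 1, KO1 replicate 1 or KO1 replicate 3, with adjusted p between 0.0563 and 0.0713. Against all 6 WT libraries the KO2 value was −0.19 with an adjusted p of 0.0645. CDKN1A, a p53 target gene, was at 87.8 to 95.2 CPM in KO1 and 90.2 to 93.6 in WT1, with a log2 fold change of −0.01 (interval −0.12 to 0.10). In KO2 it was at 108, 114 and 128 CPM, above the 92.6, 91.6 and 90.9 of WT2 (0.34, SE 0.06, adjusted p = 0.000356).

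The knockouts, which by the study's text differ in sgRNA, were compared with each other by the contrast of KO1 against WT1 minus KO2 against WT2. Of the 10 genes, 2 differed with the higher value in KO1 (CCND1 and CDKN2A) and 3 with the lower value in KO1 (CCNE1, CDK6 and CDKN1A), where 11.2% and 12.1% of all genes did. The difference was 0.66 for CCND1 (SE 0.08, adjusted p = 1e-05) and −0.50 for CCNE1 (SE 0.08, adjusted p = 0.000198). CDKN2B, with −0.42 (SE 0.15), had an adjusted p of 0.0505, and it passed without KO1 replicate 2 (−0.53, adjusted p = 0.0106) or WT2 replicate 1 (−0.49, adjusted p = 0.0299). It also passed with the replicate block (adjusted p = 0.0361), in DESeq2 (adjusted p = 0.0341) and with RLE normalization (adjusted p = 0.0483). None of the 10 differed by at least 1 on the log2 scale, which 5.52% of all genes did. RBPMS itself also differed (−0.36, adjusted p = 0.00672), with the larger fall in KO1.

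**Figure D2:**
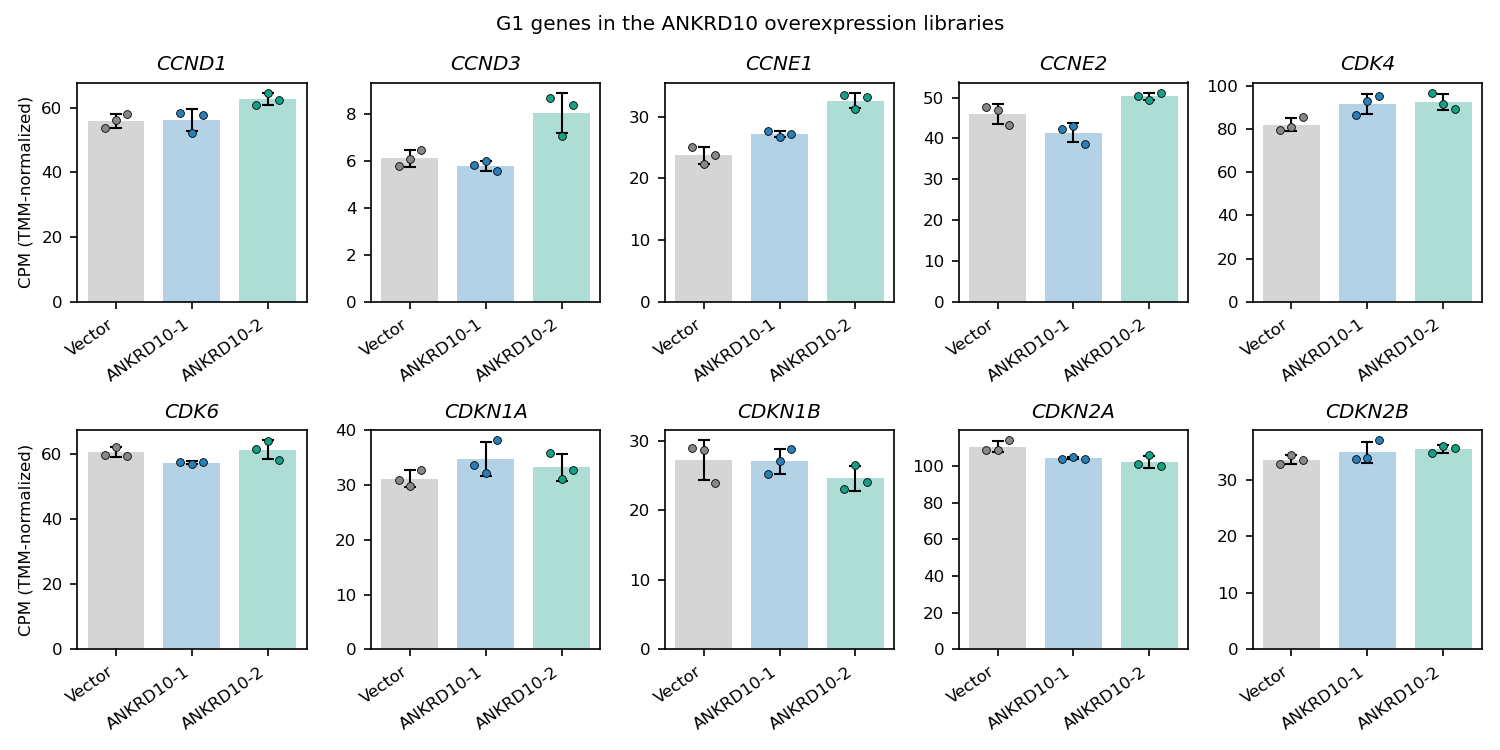
CPM after TMM normalization (vertical axes, from 0) of the 10 genes in the 9 overexpression libraries; points are libraries, bars are means and error bars are SD (n = 3). CCNE1 rose from 22.4 to 25 CPM in Vector to 31.2 to 33.5 in ANKRD10-2, and the 4 inhibitors in the lower row lay close to Vector.

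CCNE1 was higher in the ANKRD10-2 cells than in Vector whichever library was left out, while smaller rises of CCND1, CCND3 and CDK4 did not pass without some of the libraries. In the ANKRD10-2 cells 4 of the 10 genes were higher than in Vector (CCND1, CCND3, CCNE1 and CDK4) and 0 were lower in edgeR's test, where 10.7% of all genes were higher and 9.25% lower. DESeq2 called the same 4, while edgeR with no filter on low counts lost the CCND1 call (adjusted p = 0.0937). At an unadjusted p under 0.05 there were 2 genes beyond these 4, CCNE2 higher and CDKN2A lower. In the ANKRD10-1 cells 0 of the 10 passed, against 3.5% higher and 2.81% lower of all genes. At an unadjusted p under 0.05 there were 4 (CCNE1, CDK4 and CDKN1A higher and CCNE2 lower), and DESeq2 called 1, CDK4. None of the 10 genes reached a change of 1 on the log2 scale, which 0.391% of genes did in the ANKRD10-1 cells and 1.19% in the ANKRD10-2 cells.

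CCNE1 was at 25.0, 22.4 and 23.7 CPM in Vector and at 33.5, 31.2 and 33.1 CPM in ANKRD10-2, with no overlap (log2 fold change 0.46, SE 0.07, adjusted p = 0.000307). In ANKRD10-1 it was at 27.6, 26.7 and 27.2 CPM, with a log2 fold change of 0.20 (adjusted p = 0.0807). CCND3 was at 8.67, 7.09 and 8.41 CPM in ANKRD10-2, against 5.79, 6.07 and 6.47 in Vector (0.40, SE 0.11, adjusted p = 0.0184). CCND1 was at 61.0, 64.6 and 62.4 CPM in ANKRD10-2, above the 53.7, 56.3 and 58.0 of Vector (0.16, SE 0.05, adjusted p = 0.0437).
CDK4 was at 96.6, 91.3 and 89.2 CPM in ANKRD10-2, above the 79.4, 81.0 and 85.4 of Vector (0.17, SE 0.05, adjusted p = 0.0311). In ANKRD10-1 the CDK4 change was 0.16 with an adjusted p of 0.0714, and it passed without Vector replicate 3 (0.19, adjusted p = 0.0353). In ANKRD10-2 the calls for CCND1, CCND3 and CDK4 were each lost when either of Vector replicates 1 and 2 was left out, which left CCNE1 alone. Without any 1 of the ANKRD10-2 libraries, 2 of the 4 calls were left.

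The variants were also compared directly. By the study's text RBPMS genotype may differ between them, as it may between Vector and a variant. In ANKRD10-2 against ANKRD10-1 cells, 3 of the 10 genes were higher and 0 lower, where 4.15% and 3.1% of all genes were, and none of the 10 reached a change of 1, which 0.359% did. CCND3 was higher by 0.48 on the log2 scale (SE 0.11, adjusted p = 0.0099), CCNE2 by 0.28 (SE 0.06, adjusted p = 0.00559) and CCNE1 by 0.26 (SE 0.06, adjusted p = 0.0123). The CCNE1 call was lost without ANKRD10-1 replicate 2 (adjusted p = 0.0658) or ANKRD10-2 replicate 3 (adjusted p = 0.0519). No gene of the 10 was lower at an unadjusted p under 0.05 or in DESeq2. CCNE2 stood at 50.3, 49.4 and 51.1 CPM in ANKRD10-2 and at 42.3, 43.1 and 38.7 CPM in ANKRD10-1, on either side of the 43.2 to 47.7 CPM of Vector. For CDK4 the difference was 0.01, with an interval of −0.10 to 0.13.

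**Figure D3:**
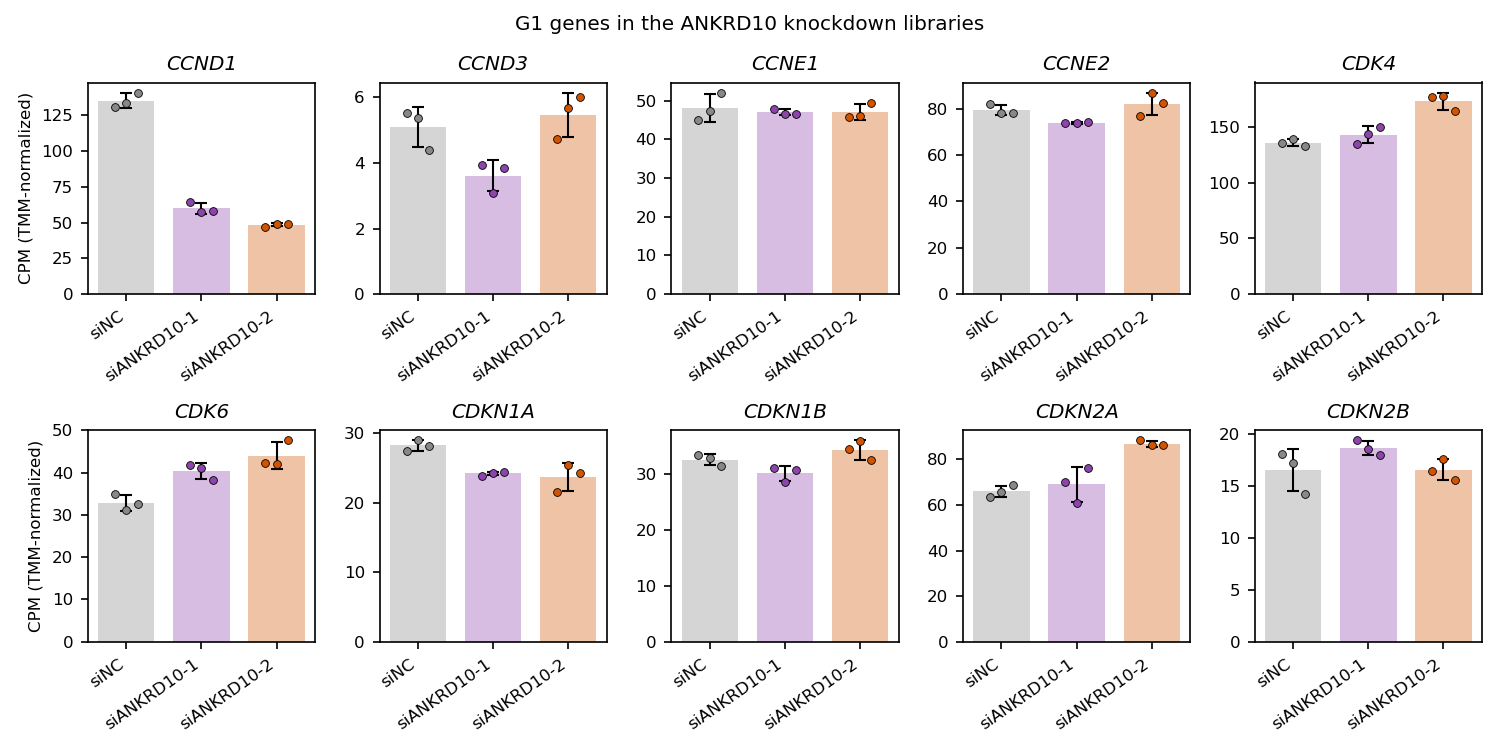
CPM after TMM normalization (vertical axes, from 0) of the 10 genes in the 9 knockdown libraries; points are libraries, bars are means and error bars are SD (n = 3). CCND1 fell from 131 to 141 CPM in siNC to 57.6 to 64.3 in siANKRD10-1 and 47.3 to 49.3 in siANKRD10-2.

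With both siRNAs CCND1 mRNA was at under 50% of its siNC level and CDKN1A was slightly lower, while CDK6 was higher. By the study's text, RBPMS genotype may differ between siNC and an siRNA group. In siANKRD10-1, 1 of the 10 genes was higher (CDK6) and 3 were lower (CCND1, CCND3 and CDKN1A) than in siNC, where 5.08% and 5.52% of all genes were. In siANKRD10-2, 3 were higher (CDK4, CDK6 and CDKN2A) and 2 lower (CCND1 and CDKN1A), where 17.6% and 18.7% of all genes were. CCND1 was the only one of the 10 with a change of at least 1 on the log2 scale, which 0.367% of genes reached with siANKRD10-1 and 2.64% with siANKRD10-2. The siRNA groups share the siNC libraries, and the medians of the 10 genes were −0.07 and 0.06, beside 0 for all genes in each.

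CCND1 was at 131, 134 and 141 CPM in siNC and at 64.3, 57.6 and 57.8 CPM in siANKRD10-1 (log2 fold change −1.18, SE 0.06, adjusted p = 1.02e-09), a level 0.443 times that of siNC. In siANKRD10-2 it was at 47.3, 49.3 and 48.7 CPM (−1.48, SE 0.06, adjusted p = 3.34e-16), a level 0.358 times that of siNC. CCND3, whose counts per library were 97 to 196, was at 3.93, 3.08 and 3.83 CPM in siANKRD10-1, below the 5.51, 5.37 and 4.4 of siNC (−0.49, SE 0.15, adjusted p = 0.04). That call was lost in DESeq2 (adjusted p = 0.07) and without any 1 of 5 of the 6 libraries, siNC replicate 3 being the exception, and in siANKRD10-2 the CCND3 change was 0.11 with an interval of −0.18 to 0.39.

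CDK6 was at 34.9, 31.1 and 32.6 CPM in siNC, 41.9, 41.1 and 38.2 in siANKRD10-1 (log2 fold change 0.30, SE 0.07, adjusted p = 0.0079) and 42.2, 42.1 and 47.7 in siANKRD10-2 (0.42, SE 0.07, adjusted p = 1.57e-05). The siANKRD10-1 call for CDK6 was lost without siNC replicate 2 (0.25, adjusted p = 0.078) or siANKRD10-1 replicate 1 (0.27, adjusted p = 0.0598). CDK4 was at 177, 178 and 164 CPM in siANKRD10-2, above the 136, 139 and 133 of siNC (0.35, SE 0.05, adjusted p = 1.06e-05). With siANKRD10-1 the CDK4 groups overlapped, at 135 to 150 CPM (0.07, interval −0.04 to 0.19). CCNE1 and CCNE2 passed with neither siRNA, and their 4 log2 fold changes lay between −0.11 and 0.05.
Among the inhibitors, CDKN1A was at 27.5 to 29.0 CPM in siNC, 23.9 to 24.4 in siANKRD10-1 (−0.22, SE 0.07, adjusted p = 0.04) and 21.5 to 25.4 in siANKRD10-2 (−0.25, SE 0.07, adjusted p = 0.00889). The siANKRD10-1 call for CDKN1A was lost in DESeq2 (adjusted p = 0.053) and with no filter on low counts (adjusted p = 0.0702). It was also lost without any 1 of 5 of the 6 libraries, siANKRD10-1 replicate 2 being the exception. The siANKRD10-2 call for CDKN1A was lost without siANKRD10-2 replicate 1 (adjusted p = 0.0804). CDKN2A was at 88.5, 86.2 and 86.2 CPM in siANKRD10-2, above the 63.7, 65.7 and 68.7 of siNC (0.40, SE 0.05, adjusted p = 2.13e-06). CDKN2A ranged from 60.8 to 76.1 CPM in siANKRD10-1 and overlapped siNC. CDKN2B and CDKN1B passed with neither siRNA.

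By the study's text, RBPMS genotype may also differ between the siRNA groups. In siANKRD10-2 against siANKRD10-1, 5 of the 10 genes were higher and 1 lower, where 18.2% and 18.8% of all genes were. None reached a change of 1, which 2.73% did. CCND3 was higher by 0.61 (SE 0.15, adjusted p = 0.00266), CDKN2A by 0.34 (SE 0.07, adjusted p = 0.0003) and CDK4 by 0.28 (SE 0.06, adjusted p = 0.000463). CDKN1B (0.19, adjusted p = 0.028) and CCNE2 (0.16, adjusted p = 0.0325) were also higher. The CDKN1B call was lost in DESeq2 (adjusted p = 0.0622) and without any 1 of siANKRD10-1 replicates 1 and 2 and siANKRD10-2 replicates 1 and 2, with adjusted p of up to 0.144. The CCNE2 call was lost without any 1 of siANKRD10-1 replicates 1 and 3 and siANKRD10-2 replicates 2 and 3, with adjusted p of up to 0.206. Both calls were lost with the replicate block (0.0527 for CDKN1B and 0.0611 for CCNE2). With no filter on low counts the CCNE2 call was lost as well (adjusted p = 0.0577). CCND1 was lower in siANKRD10-2, with a change of −0.30 on the log2 scale (SE 0.06, adjusted p = 0.000416).

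**Figure D4:**
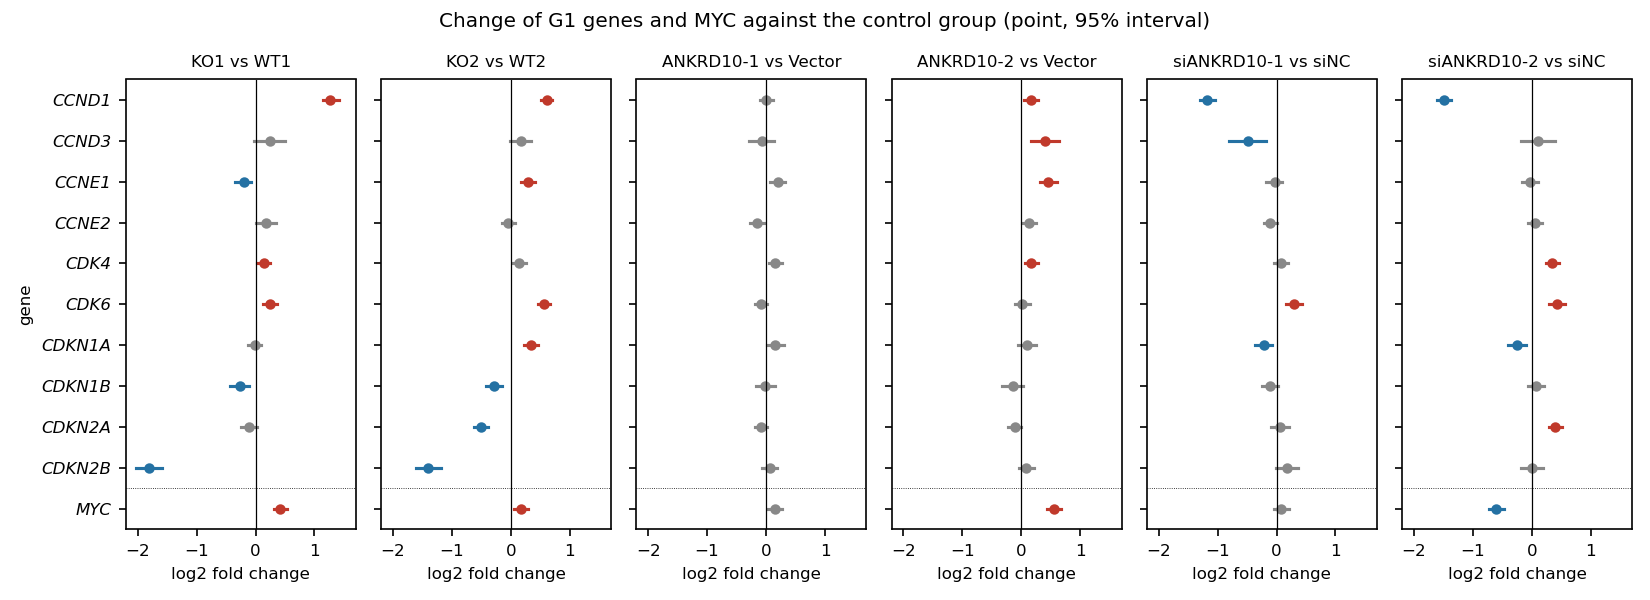
Log2 fold change (horizontal axes) of the 10 genes and MYC in each treated group against its own control, with 95% intervals from edgeR; red is higher and blue lower at an adjusted p under 0.05, and grey did not pass. CCND1 was higher in KO1 (1.27) and lower in siANKRD10-2 (−1.48), whereas CDKN2B was lower in KO1 and KO2 and grey in the other 4 panels.

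MYC, whose pathway the study examined, had log2 fold changes of 0.42 in KO1 (adjusted p = 7.32e-05), 0.17 in KO2 (adjusted p = 0.032) and 0.55 in ANKRD10-2 (adjusted p = 2.16e-05). It was −0.60 in siANKRD10-2 (adjusted p = 3.72e-08), and 0.16 in ANKRD10-1 and 0.08 in siANKRD10-1 did not pass. The KO2 call was lost without WT2 replicate 1 (0.17, adjusted p = 0.0785), WT2 replicate 3 (0.12, adjusted p = 0.135) or KO2 replicate 3 (0.11, adjusted p = 0.141), and with no filter on low counts (0.15, adjusted p = 0.107).

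Other genes of the pathway were taken from fixed lists, whose counts are to be read against the shares of all genes higher and lower in each comparison. Those shares were 17.9% and 18.2% in KO1, 19.3% and 19.2% in KO2, 3.5% and 2.81% in ANKRD10-1, 10.7% and 9.25% in ANKRD10-2, 5.08% and 5.52% in siANKRD10-1, and 17.6% and 18.7% in siANKRD10-2.

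Of 18 RB, E2F and other cyclin-CDK genes, 17 were tested in each comparison. Of these, 2 rose and 5 fell in KO1, and 2 rose and 9 fell in KO2. In ANKRD10-1 0 passed in edgeR and in DESeq2, and 7 had an unadjusted p under 0.05. In ANKRD10-2 4 rose and 2 fell, in siANKRD10-1 0 rose and 1 fell, and in siANKRD10-2 6 rose and 2 fell. The 7 calls in KO1 became 4 without WT1 replicate 2, and the 8 in siANKRD10-2 became 5 without siANKRD10-2 replicate 1. The 6 in ANKRD10-2 became 2 without Vector replicate 1 and 3 without ANKRD10-2 replicate 2 or 3. In ANKRD10-1, 2 passed without Vector replicate 3 and 1 without ANKRD10-1 replicate 2. In siANKRD10-1 the count was 0 without siNC replicate 2 and 2 without siNC replicate 3 or siANKRD10-1 replicate 3. CDKN1C, which encodes the inhibitor p57, was at 3.32, 3.8 and 4.03 CPM in WT1 and 0.619, 0.57 and 0.829 CPM in KO1 (log2 fold change −2.46, SE 0.24, adjusted p = 2.17e-05), while KO2 and WT2 overlapped. CDKN2C, which encodes the INK4 inhibitor p18, fell in KO2 (−0.93, SE 0.10, adjusted p = 1.95e-05) and rose in siANKRD10-2 (0.76, SE 0.14, adjusted p = 8.74e-05). RB1, the retinoblastoma gene, was at 7.03, 6.46 and 5.67 CPM in WT2 and 3.87, 4.24 and 3.38 CPM in KO2 (−0.74, SE 0.15, adjusted p = 0.00224).

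Of 12 genes for activation and turnover of these cyclins and inhibitors, 4 rose and 1 fell in KO1, 4 rose and 2 fell in KO2, and 5 rose and 2 fell in ANKRD10-2. In ANKRD10-1 1 rose, in siANKRD10-1 1 rose and 1 fell, and in siANKRD10-2 2 rose and 4 fell. The 5 calls in KO1 became 2 without WT1 replicate 1 or KO1 replicate 3 and 3 without KO1 replicate 2. The 7 in ANKRD10-2 became 3 without Vector replicate 1, 4 without Vector replicate 2 and 2 without ANKRD10-2 replicate 3. The 1 in ANKRD10-1 was lost without any 1 of Vector replicates 1 and 2 and ANKRD10-1 replicates 1 and 2. The 2 in siANKRD10-1 became 1 without siNC replicate 1 or siANKRD10-1 replicate 1 or 3, and the 6 in siANKRD10-2 became 3 without siANKRD10-2 replicate 1. With siANKRD10-1, FBXW7, the ubiquitin ligase subunit that recognises cyclin E, fell from 43.1 to 44.0 CPM to 28.8 to 31.1 CPM (−0.52, SE 0.06, adjusted p = 2.71e-05), while CDC25A, a phosphatase that activates CDKs, rose (0.35, SE 0.09, adjusted p = 0.0176). The CDC25A call was lost without siNC replicate 1 (0.24, adjusted p = 0.115), siANKRD10-1 replicate 1 (0.34, adjusted p = 0.0758) or siANKRD10-1 replicate 3 (0.32, adjusted p = 0.0544).

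Of 15 E2F target genes of S phase entry, 4 rose and 3 fell in KO1, 4 rose and 4 fell in KO2, 1 rose and 2 fell in ANKRD10-1, and 2 rose and 3 fell in ANKRD10-2, where the 5 calls became 3 without Vector replicate 1 or 2. With siANKRD10-1 0 of them passed in edgeR and 1 in DESeq2, with 3 at an unadjusted p under 0.05, and with siANKRD10-2 4 rose and 5 fell. POLA1, a DNA polymerase subunit gene, was among those that fell in ANKRD10-1 (−0.28, SE 0.06, adjusted p = 0.00503).

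Of 24 genes of p53 and its targets, 5 rose and 6 fell in KO1, 7 rose and 13 fell in KO2, 2 rose in ANKRD10-1, 4 rose and 4 fell in ANKRD10-2, 2 rose and 1 fell in siANKRD10-1, and 6 rose and 6 fell in siANKRD10-2. The 3 calls in siANKRD10-1 became 1 without any 1 of siNC replicates 1 and 2 and siANKRD10-1 replicates 1 and 2. The 8 in ANKRD10-2 became 5 without Vector replicate 2, and the 2 in ANKRD10-1 became 5 without Vector replicate 3. GADD45A, a growth arrest gene, was at 91.8, 105 and 118 CPM in Vector, 173, 164 and 184 in ANKRD10-1 (0.73, SE 0.07, adjusted p = 1.81e-06) and 229, 217 and 219 in ANKRD10-2 (1.08, SE 0.07, adjusted p = 1.78e-07). It also rose in KO2 (0.95, SE 0.11, adjusted p = 3.85e-05), where CDKN1A was higher. SESN2 rose in ANKRD10-1 (0.85, SE 0.08) and ANKRD10-2 (0.76, SE 0.10), and XPC (−0.38) and POLH (−0.43) fell in ANKRD10-2. PLK3 rose in KO1 (0.62, SE 0.12) and KO2 (1.05, SE 0.13), AEN rose in KO1 (0.46, SE 0.09) and TP53INP1 fell there (−1.15, SE 0.08). With siANKRD10-1, MDM2 fell (−0.33) and CCNG1 rose (0.24). The CCNG1 call was lost in DESeq2 (adjusted p = 0.0569) and without any 1 of 5 of the 6 libraries (all but siANKRD10-1 replicate 3), with adjusted p of up to 0.124. With siANKRD10-2, BBC3 rose (0.83) while ZMAT3 (−1.08) and RRM2B (−0.50) fell.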

How the data were processed

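RNA was sequenced from 30 libraries of 5637 cells in 10 groups of 3, grouped by the labels. The deposited tables hold raw counts per gene. The authors' methods name Cutadapt, Trimmomatic (version 0.36 in the submitters' processing notes), HISAT2 and StringTie, while those notes list featureCounts, Subread 1.5.1 and GRCh38. Counts were analysed in R 4.3.3 with edgeR 4.0.16: filterByExpr (minimum count 10, minimum total 15), TMM, and the quasi-likelihood test on the groups compared, or on all 12 knockout libraries for the difference between knockouts. P-values were adjusted by Benjamini-Hochberg over all genes tested (threshold 0.05), and log2 fold changes used a prior count of 0.125. An exact permutation test of 3 against 3 cannot go below 0.1. The labels name no separate cultures, so p-values measure the spread between these libraries, which may be technical. The fits were tested on simulated data; the acceptance criteria of that test were revised more than once after its results were seen, and the final ones concern calibration, interval coverage, slope and sign, not the share of changes recovered. In it edgeR's share of false calls exceeded the nominal level when highly variable genes were simulated, and DESeq2 1.42.0 made more false calls than edgeR. Alternatives were RLE normalization, DESeq2, no filter, each library left out, a replicate block, all groups in the fit, all WT libraries as control and a fold threshold of 1. The 10 genes and the pathway lists were chosen with earlier results of these data known. Pathway genes named were the 2 largest rises and 2 largest falls per comparison with a control, at a mean of at least 50 counts and no overlap between groups. A gene that this rule names is not reported here.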

Additional observations from a re-analysis of the deposited data

Results flagged for a closer look

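The change in KO1 against WT1 differed from that in KO2 against WT2 for 5 of the 10 genes, by edgeR's test of the difference itself over the 12 knockout libraries. The difference in log2 fold change was 0.66 for CCND1 (adjusted p = 1e-05), which rose more in KO1. It was 0.39 for CDKN2A (adjusted p = 0.00321), which fell in KO2. It was −0.50 for CCNE1 (adjusted p = 0.000198), which fell in KO1 and rose in KO2. CDK6 (−0.32, adjusted p = 0.00736) and CDKN1A (−0.36, adjusted p = 0.00311) were the others, both with the higher value in KO2. Of all genes tested, 11.2% differed with the higher value in KO1 and 12.1% with the lower.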

How the results depend on the processing

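Over 90 values (10 genes in 9 comparisons), direction and call held for 88 under RLE normalization, 84 under DESeq2 and 85 with no filter on low counts, and 0 changed sign. With all groups of a table in the fit 79 of 80 held, and against all 6 WT libraries 17 of 20. Of 600 values with a library left out, 523 held, 48 lost the call, 8 gained it and 21 changed sign, all of values that had not passed. The causes were not tested.

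Requiring a log2 fold change of at least 1 as well left 1149 genes in KO1, 1095 in KO2, 80 in ANKRD10-1, 241 in ANKRD10-2, 69 in siANKRD10-1, 500 in siANKRD10-2, 72 in ANKRD10-2 against ANKRD10-1, 514 in siANKRD10-2 against siANKRD10-1 and 1059 in the difference between knockouts. Of the 10 genes it left 2 in KO1, 1 in KO2, 0 in ANKRD10-1 and ANKRD10-2, 1 in each of siANKRD10-1 and siANKRD10-2, and 0 in the other 3 comparisons. DESeq2 and the fit with no filter each called 1 of the 10 in ANKRD10-1, and DESeq2 called 2 in siANKRD10-1. With no filter, the calls among activation and turnover genes went from 5 to 3 in KO1 and from 0 to 1 in ANKRD10-2 against ANKRD10-1, and in ANKRD10-1 those among RB and E2F genes from 0 to 2 and among p53 genes from 2 to 4. With the replicate block, RB and E2F calls in siANKRD10-1 went from 1 to 2.

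The labels give every group replicates 1 to 3. Correlations of same-numbered libraries ranged from −0.08 to 0.17, and in no comparison were all 3 over 0.1, so the numbers were not taken to pair the libraries. In KO2 (0.07 to 0.08) and ANKRD10-2 (0.06 to 0.16) each exceeded those of differently numbered libraries (at most −0.01 and 0.04). With the replicate block 85 of 90 values held. Of the 10 genes, it called 5 in KO1, 8 in KO2, 0 in ANKRD10-1, 4 in ANKRD10-2, 4 in siANKRD10-1, 5 in siANKRD10-2, 3 in ANKRD10-2 against ANKRD10-1, 4 in siANKRD10-2 against siANKRD10-1 and 6 in the difference. All genes called with the block numbered 6082 in KO1, 7084 in KO2, 1309 in ANKRD10-1, 4766 in ANKRD10-2, 2778 in siANKRD10-1 and 6936 in siANKRD10-2.

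With each library left out, the genes called ranged from 700 to 1549 in ANKRD10-1, 2617 to 3533 in ANKRD10-2, 949 to 2430 in siANKRD10-1 and 694 to 1396 in ANKRD10-2 against ANKRD10-1. Of the 10, the calls ranged from 3 to 6 in KO1, 0 to 1 in ANKRD10-1, 1 to 4 in ANKRD10-2 and 1 to 3 in siANKRD10-1. Log2 fold changes that changed sign ranged as follows. In KO1 CDKN1A went from −0.03 to 0.02 and CDKN2B-AS1 from −0.27 to 0.03, and in KO2 CCNE2 went from −0.08 to 0.01. In ANKRD10-1 CDKN1B went from −0.09 to 0.04 and CDKN2B-AS1 from −0.17 to 0.07. In ANKRD10-2 CDK6 went from −0.01 to 0.06, MTAP from −0.02 to 0.04 and RBPMS from −0.04 to 0.17. In siANKRD10-1 CCNE1 went from −0.08 to 0.02, CDKN2A from −0.01 to 0.14 and RBPMS from −0.18 to 0.02, and in siANKRD10-2 CCNE1 from −0.07 to 0.03 and RBPMS from −0.04 to 0.16. In ANKRD10-2 against ANKRD10-1 CDK4 went from −0.03 to 0.04 and CDKN1A from −0.12 to 0.02. In siANKRD10-2 against siANKRD10-1 CCNE1 went from −0.03 to 0.03 and CDKN1A from −0.08 to 0.04. In the difference between knockouts CDKN1B went from −0.06 to 0.05 and CCND3 from −0.03 to 0.2. CCND1 in ANKRD10-1 (−0.03 to 0.05), CDKN2B in siANKRD10-2 (−0.1 to 0.07), ANKRD10 in siANKRD10-2 against siANKRD10-1 (−0.03 to 0.03) and CDK4 in the difference (−0.04 to 0.04), each 0 over all libraries, also lay on either side of 0.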
